A study of Homo sapiens with 60 samples.

Results

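HepG2 cells given the highest dose of an ethanol extract of Coptidis Rhizoma, the rhizome of goldthread plants, were compared with HepG2 cells given an ethanol extract of Zizyphi Fructus, the jujube fruit. The comparison took 8 of the 60 libraries of the series. They are the 2 libraries of Coptidis at 280 µg/mL and the 6 Zizyphi libraries, chosen because their titles share a set number while the vehicle libraries carry another. HepG2 is an established human line from a liver cancer that still makes many hepatocyte products.

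Each cell culture was treated for 24 h and total RNA was sequenced from directional libraries. The Coptidis group had replicates 2 and 3 at 280 µg/mL, which the series' dose rule gives as the concentration of 20% inhibition (IC20). The Zizyphi group pooled replicates 2 and 3 at each of 500, 100 and 20 µg/mL, so that the reference spans 3 doses of another extract and is not an untreated control. Vehicle libraries (DMSO alone, n = 3) and the Coptidis doses of 56 and 11.2 µg/mL (n = 2 each) are given as further values. Both extract groups share the cell line, the duration and the ethanol extraction, and titles and descriptions give their libraries different batch letters. Nothing in the labels shows whether the replicates came from different cultures. The spread behind each p-value is therefore that of these libraries and could be technical.

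Library totals of the 8 libraries ran from 20530105 to 28165495 counts, with the 2 Coptidis libraries below all 6 Zizyphi libraries. The scaling factors were 0.924 and 0.931 in the Coptidis libraries against 1.00 to 1.01 in Zizyphi, and the part of depth and scaling in the results below was not tested. Of 8 hepatocyte markers 8 were found in each library, with summed levels of 26321 to 27287 CPM (counts per 1000000, after TMM scaling) with Coptidis and 43237 to 46910 CPM with Zizyphi. The 8 fibroblast markers summed to 7.12 to 8.15 CPM with Coptidis and 9.58 to 12.1 CPM with Zizyphi. Most of this was PDGFRB (6.86 to 7.69 and 8.62 to 10.9 CPM), while COL1A2, DCN and POSTN were at 0 in all 8 libraries. For 8 endothelial markers the sums were 3.07 to 4.19 and 4.22 to 5.57 CPM. Most of that was PECAM1 (2.00 to 3.46 and 2.74 to 3.99 CPM), while KDR, TEK and EMCN were at 0. The 8 leukocyte markers summed to 650.5 to 702 CPM and 1259 to 1495 CPM, nearly all of it from LYZ and CD68, while PTPRC, CD3E and MS4A1, which define leukocytes and lymphocytes, were at 0. CD68 and LYZ moved in opposite directions between the groups, and the part of these markers in the results was not tested. The spread of each gene was estimated over 57 libraries of the series, of which replicate 3 of the low dose of Bupleuri Radix stood apart from its own replicates, and without it 12096 genes in place of 11616 were called.

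Coptidis Rhizoma is known for its protoberberine alkaloids, of which berberine is the most abundant. In liver cells berberine is known to inhibit respiratory complex I and to activate the energy sensor AMPK, and planar alkaloids of this kind can bind the aryl hydrocarbon receptor. A hepatocyte secretes most plasma proteins, makes cholesterol and bile acids, and clears foreign compounds. These functions depend on a small set of transcription factors, and stress programmes such as the integrated stress response (through ATF4), the oxidative stress response (through NRF2) and the p53 pathway change the same cells' mRNA output. This is background, and nothing below tests which compound acted.

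Most of the transcriptome differed between the extracts. Of 16675 genes tested with edgeR's quasi-likelihood test, 5933 (35.6%) were higher and 5683 (34.1%) lower with Coptidis at a Benjamini-Hochberg adjusted p under 0.05. When the test asked for a change larger than 2-fold (edgeR's glmTreat), 1654 genes (9.92%) were higher and 1316 (7.89%) lower. Coptidis and Zizyphi libraries did not overlap in 72.9% of all tested genes, so that a gene without overlap was the rule. The median log2 fold change over all tested genes was −0.0047. It moved to −0.1235 with library totals alone in place of TMM scaling, and values below are relative to the TMM scale. With so many calls, the counts of list members below are to be read beside these shares, and sizes carry more than the calls. Some lists share members, so their counts and medians are not separate results. SLC7A11 is on the NRF2 and ATF4 lists, NQO1 on the aryl hydrocarbon receptor and NRF2 lists, and PMAIP1 and BAX on the p53 and BCL2 lists, among others.

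**Figure D1:**
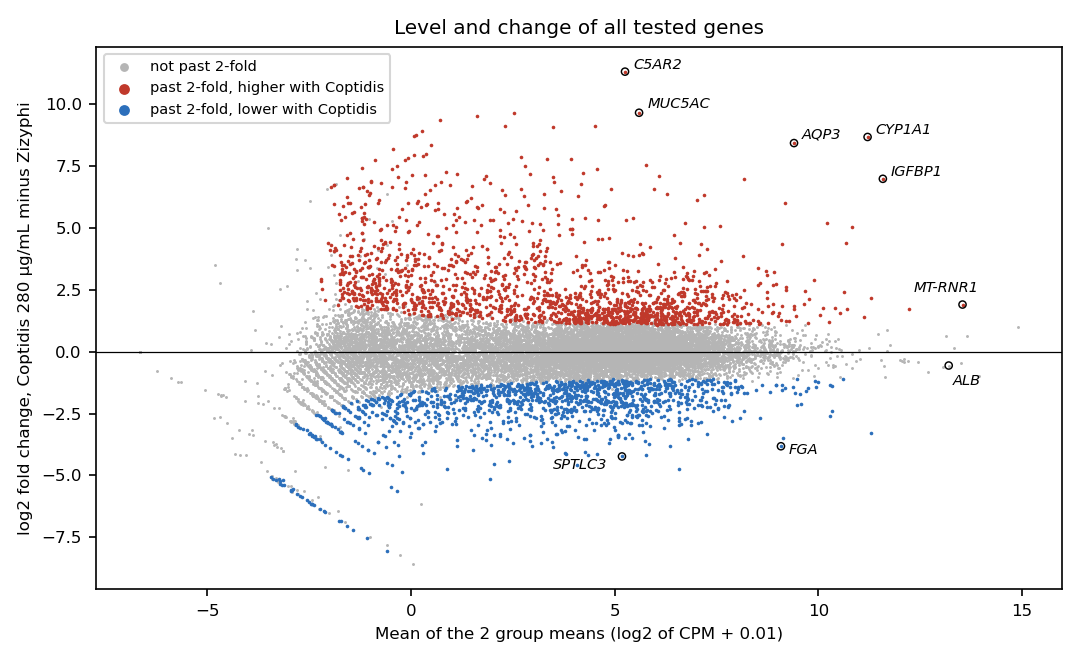
Mean level (x axis, log2 of CPM + 0.01) and log2 fold change of Coptidis 280 µg/mL minus Zizyphi (y axis) of each of 16675 tested genes, with those past 2-fold in red (1654 higher) and blue (1316 lower). The highest points are C5AR2 at 11.32 and MUC5AC at 9.66, while the abundant ALB lies at −0.56.

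The largest rises among genes of at least 5 CPM in either group and without overlap between the groups were in genes hardly detected with Zizyphi. C5AR2, a receptor for the complement fragment C5a (chromosome 19, 47332147 to 47347327, GRCh38), was at 77.4 and 75.3 CPM in the Coptidis libraries and at 0 to 0.0796 CPM (median 0.0179) in the Zizyphi libraries, where all 6 together held 4 counts. MUC5AC, the gel-forming mucin of stomach and airway, was at 103 and 90.5 CPM against 0.0358 to 0.180 CPM (median 0.130). Separation of the Coptidis from the Zizyphi libraries was a condition of the choice of these genes. Being near 0 with Zizyphi, they could pass the count filter only through groups where they were higher, so the filter favoured rises. Their log2 fold changes were 11.32 and 9.66 (edgeR adjusted p = 6.6e-37 and 1.3e-37). No SE is given for them, since the SE used below comes from the test statistic and is too small at so few counts.

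AQP3, a channel for water and glycerol (chromosome 9, 33441154 to 33447633), moved from a low to a high level. It was at 1345 and 1357 CPM with Coptidis and 3.04 to 4.70 CPM (median 3.80) with Zizyphi. The log2 fold change was 8.44 ± 0.08 (SE, edgeR adjusted p = 9.4e-49). SERPINB2, an inhibitor of plasminogen activators, was at 22.9 and 21.5 CPM against 0 to 0.0898 CPM (median 0.0399), and TMEM156, a membrane protein, at 46.0 and 46.2 CPM against 0 to 0.12 CPM (median 0.0924). Of the remaining genes that the rule took for their rise, 3 had 3 or fewer counts over the 6 Zizyphi libraries, so only a counting ratio is given. For LIM2, a lens membrane protein, the ratio was 884 (95% counting interval 243 to 7318). For MYZAP, a protein of heart cell junctions whose locus is shared with a read-through gene, it was 933 (166 to 37012). MLPH, melanophilin, which links pigment granules to myosin, had a ratio of 506 (172 to 2463).

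The largest falls, by the same rule, included enzymes and carriers of liver metabolism. SPTLC3, a subunit of the enzyme that starts sphingolipid synthesis (chromosome 20, 13008979 to 13169103), was at 3.77 and 3.54 CPM with Coptidis and 66.3 to 75.3 CPM (median 67.1) with Zizyphi, 18.8-fold lower (log2 −4.23 ± 0.10, edgeR adjusted p = 4.9e-34). ACSM3, a medium-chain acyl-CoA synthetase of mitochondria, was at 5.50 and 5.79 CPM against 97.5 to 114 CPM (median 103). Like all genes taken by this rule, both were required to have no overlap between the groups. The related ACSM2A had the lowest log2 fold change of these (−5.13, no SE given at so few counts), with 8 against 1150 counts. It has a near-identical neighbour, and its share of reads is uncertain.

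Transport and other genes made up the rest of that group. SLC6A14, an amino acid importer, had a log2 fold change of −4.16 ± 0.15, the organic anion carrier SLCO4C1 one of −4.12 ± 0.14 and the sodium channel SCN1A one of −4.08 ± 0.20. FAM111B, a protease of dividing cells, changed by −4.59 ± 0.13 and the galectin LGALS2 by −4.42 ± 0.27. HPR, the haptoglobin-related protein, changed by −4.13 ± 0.16, with the same caution on near-identical copies since it neighbours HP.

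**Figure D2:**
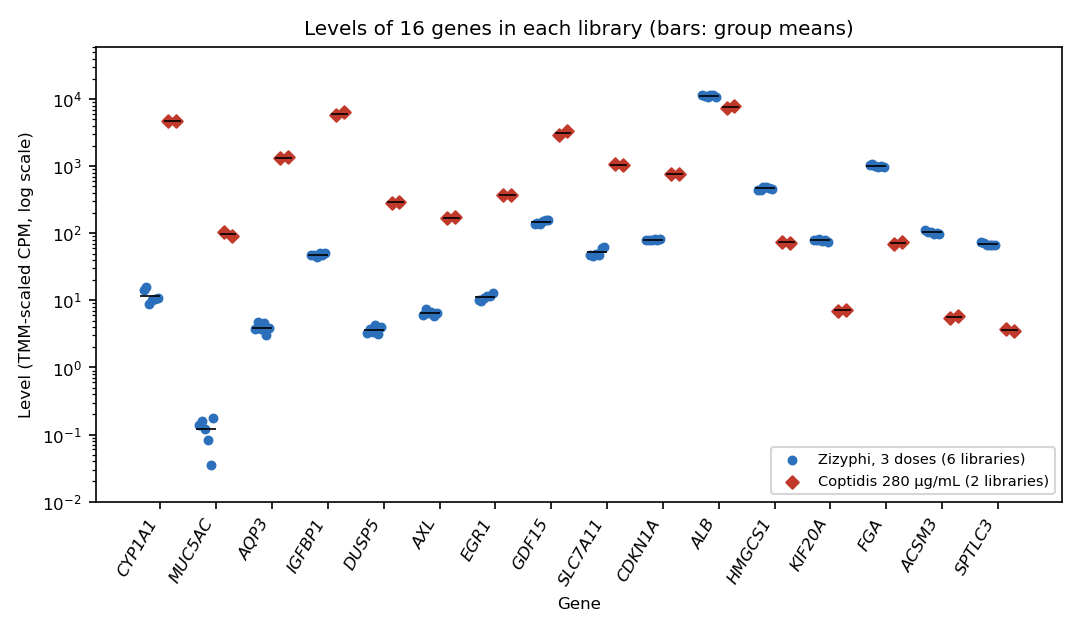
Levels (TMM-scaled CPM, log axis) of 16 genes in each of the 6 Zizyphi libraries (blue circles) and the 2 Coptidis libraries (red diamonds), with bars at the group means. In each of the 16 genes both Coptidis libraries lie outside the range of Zizyphi, above it from CYP1A1 (4686 and 4767 CPM) to CDKN1A (764 and 761 CPM) and below it from ALB to SPTLC3 (3.77 and 3.54 CPM). For the genes taken as largest rises and falls this was a condition of the choice.

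Drug-metabolising enzymes were led by targets of the aryl hydrocarbon receptor (AhR), a ligand-activated transcription factor that pairs with ARNT and binds sites with the core GCGTG. CYP1A1, the enzyme most used as its readout (chromosome 15, 74719542 to 74725610), was at 4686 and 4767 CPM with Coptidis and 8.98 to 15.6 CPM (median 10.6) with Zizyphi. This was a 411-fold difference (log2 8.68 ± 0.11, edgeR adjusted p = 3.6e-41). Within Zizyphi the 500 µg/mL libraries, at 14.2 and 15.6 CPM, were the highest. CYP1A2, a relative of CYP1A1, was at 12.7 and 13.4 CPM against 0.0350 to 0.0798 CPM (median 0.0430), CYP1B1, which oxidises estrogens and polycyclic hydrocarbons, at 14.3 and 13.2 CPM against 0.0398 to 0.135 CPM (median 0.0708), and ALDH3A1, an aldehyde dehydrogenase, at 106 and 111 CPM against 0.358 to 0.808 CPM (median 0.557).

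All 8 listed AhR targets were higher and past 2-fold, with a median log2 fold change of 7.05 beside −0.0047 over all genes. The other 4 are named after their values were seen. They are AHRR, the repressor of the receptor, at 6.58 ± 0.13, UGT1A6 at 6.09 ± 0.69, NQO1 at 1.77 ± 0.06 and TIPARP at 1.3 ± 0.08. Genes of the UGT1A cluster share their last exons, so the division of reads among them is uncertain. CYP1A2 and CYP1B1, near 0 with Zizyphi, could pass the count filter only through groups where they were higher, so the filter favoured rises. Ratios over such low levels also enter the list's median of 7.05. In the receptor's own machinery 4 of 6 genes were higher and 1 lower, or 4 and 2 with library totals alone. AHR itself was at 123 and 118 CPM against 46.5 to 50.1 CPM (median 48.3) (log2 1.32 ± 0.06, adjusted p = 1.6e-22), its partners ARNT and ARNT2 changed by 0.53 and 0.85, and the co-chaperone PTGES3 by −0.41.

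The stretch before the RefSeq start of 4 genes is shown because CYP1A1, TXNRD1 and KIF20A belong to lists in which many members moved together and C5AR2 headed the rises. Each is given from 150 bases before the start to the start base, 5′ to 3′ on the gene's strand, in RefSeq's GRCh38.p14. Capitals mark GCGTG in CYP1A1 (chr15:74725528-74725678, minus strand). In TXNRD1 (chr12:104215629-104215779, plus strand) they mark TGACNNNGC, the core of the antioxidant element of NRF2, first as written and then read on the other strand. In KIF20A (chr5:138178962-138179112, plus strand) they mark CCAAT, which the factor NF-Y binds, read on the other strand. C5AR2 (chr19:47332025-47332175, plus strand) held none of the 6 motifs searched.
CYP1A1: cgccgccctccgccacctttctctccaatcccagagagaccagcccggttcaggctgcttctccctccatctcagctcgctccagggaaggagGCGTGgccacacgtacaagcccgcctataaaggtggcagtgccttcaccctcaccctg
TXNRD1: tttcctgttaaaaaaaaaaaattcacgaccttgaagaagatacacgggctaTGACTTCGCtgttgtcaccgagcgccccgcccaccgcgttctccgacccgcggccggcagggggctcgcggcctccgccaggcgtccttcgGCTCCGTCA
KIF20A: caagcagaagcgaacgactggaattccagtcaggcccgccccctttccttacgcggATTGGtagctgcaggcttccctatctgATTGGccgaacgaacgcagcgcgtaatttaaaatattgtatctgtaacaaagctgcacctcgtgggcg
C5AR2: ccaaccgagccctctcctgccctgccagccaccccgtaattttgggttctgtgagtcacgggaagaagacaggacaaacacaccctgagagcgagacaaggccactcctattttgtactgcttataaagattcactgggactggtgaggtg
GCGTG begins 57 bases before the start of CYP1A1, the antioxidant core 99 and 8 bases before that of TXNRD1, and CCAAT 94 and 67 bases before that of KIF20A.

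Both strands of the full windows, 250 bases before to 50 after each start, were searched for the same letters in all 27305 promoters. GCGTG occurred in 5 of 6 AhR targets with a window, beside 36.3% of all promoters and 49.8% of those of tested genes. TGACNNNGC occurred in 4 of 13 NRF2 targets, beside 13.6% and 15.2%. Among mitosis genes CCAAT was present in 14 of 16 and TTTGAA, the cell cycle homology region, in 11 of 16, where 36.7% and 9.9% of promoters of tested genes hold them. CCAAT was in 12 of 15 cholesterol synthesis genes, while CACCCCAC, a form of the sterol element, was in 0 of 15 (2.72% of all promoters). The window of KIF20A held no TTTGAA. That of IDI1, a cholesterol synthesis gene whose sequence is not printed, held neither CCAAT nor CACCCCAC. TTGCATCA, the element of ATF4, was in 1 of 14 of its targets (0.923% of all promoters). A match is a description of letters and shows no binding, and letters absent from this window say nothing of sites elsewhere.

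Genes controlled by the drug sensors PXR and CAR were called less uniformly. Of 9 listed, 6 had enough counts, and 4 were higher and 1 lower. UGT1A1, which conjugates bilirubin, was at 14.0 and 13.2 CPM against 0 to 0.456 CPM (median 0.190) (log2 6.28 ± 0.33, edgeR adjusted p = 3.1e-21). CYP3A4, the classical PXR target, was at 0.576 and 0.307 CPM against 0.164 to 0.385 CPM (median 0.294) and was not called (edgeR adjusted p = 0.19), while its fetal relative CYP3A7 was lower, at −1.12 ± 0.14. CYP3A genes are close copies, so their reads may be shared. CYP2B6, the classical CAR target and chosen after its value was seen, had 97 counts over the Coptidis and 3 over the Zizyphi libraries, a ratio of 128 after scaling (95% counting interval 42.6 to 633). It could pass the count filter only through groups where it was higher.

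Export pumps rose in 6 of 8 cases and fell in 1. ABCG2, an exporter of urate and many drugs, was at 54.1 and 53 CPM against 12.3 to 14.3 CPM (median 13.6), 4.00-fold higher (adjusted p = 1.3e-32). ABCC2, which exports conjugates into bile, was at 1321 and 1226 CPM against 313 to 368 CPM (median 328). The log2 fold change was 1.69 ± 0.05 for ABCC3, a pump of the blood side, and 1.42 ± 0.06 for ABCB1, P-glycoprotein. ABCC6 was the member that fell, at 24.5 and 25.3 CPM against 91.0 to 103 CPM (median 101) (−2.0 ± 0.06).

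Antioxidant genes under NRF2 rose in 16 of 17 tested members, 10 of them past 2-fold, with a median log2 fold change of 1.48. SLC7A11, which imports cystine for glutathione (chromosome 4, 138164097 to 138242349), was at 1084 and 1035 CPM with Coptidis and 45.9 to 61.6 CPM (median 48.9) with Zizyphi, 20.5-fold higher (edgeR adjusted p = 9.2e-40). TXNRD1, thioredoxin reductase, was at 1666 and 1692 CPM against 218 to 232 CPM (median 226) (log2 2.89 ± 0.04). SRXN1, which restores oxidised peroxiredoxins, was at 652 and 675 CPM against 94.0 to 98.8 CPM (median 97.0), and AKR1B10, an aldo-keto reductase, changed by 2.49 ± 0.05. HMOX1, heme oxygenase, differed less, at 104 and 109 CPM against 58.2 to 64.9 CPM (median 64.2) (log2 0.75 ± 0.05, adjusted p = 1.9e-17). NFE2L2, the gene of NRF2 itself, changed by 0.29 ± 0.04.

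Enzymes that attach glutathione went the other way. Of 11 tested glutathione S-transferases 7 were lower and 1 higher (median −0.71). GSTA1, the main hepatocyte form, was at 7.96 and 7.07 CPM against 67.1 to 79.3 CPM (median 76.8), and GSTA2 at 1.20 and 1.02 CPM against 11.9 to 13.1 CPM (median 12.6). Their log2 fold changes were −3.31 ± 0.16 and −3.49 ± 0.20, and since the copies are close in sequence their division is uncertain. The microsomal MGST1 rose by 1.14.

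Metallothioneins, which bind zinc and copper, divided within the family. Of the 8 genes on their list, which also holds the zinc exporter SLC30A1 (higher, log2 0.18), 5 were lower and 2 higher, or 5 lower and 1 higher with library totals alone. MT1G was at 9.74 and 11.8 CPM against 127 to 172 CPM (median 155) (log2 −3.82 ± 0.15), MT1F at 4.76 and 6.76 CPM against 49.6 to 70.3 CPM (median 62.3) and MT1X at 12.9 and 15.7 CPM against 53.5 to 72.9 CPM (median 66.6). MT2A, by far the most abundant member with Coptidis, was higher, at 1564 and 1894 CPM against 407 to 598 CPM (median 514) (log2 1.79 ± 0.09, edgeR adjusted p = 1.2e-20). The metallothionein genes named here lie together on chromosome 16 and are similar in sequence, so reads may be shared among them.

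Most genes of the integrated stress response rose. The response slows translation while the transcription factor ATF4 raises amino acid synthesis and transport. Of 15 ATF4 targets 13 were higher and 1 lower (median 1.94), or 12 and 2 with library totals alone, and 12 were past 2-fold. ASNS, asparagine synthetase (chromosome 7, 97852118 to 97872542), was at 280.2 and 294 CPM against 27.9 to 41.8 CPM (median 30.2) (log2 3.12 ± 0.05, edgeR adjusted p = 6.1e-40). VLDLR, a lipoprotein receptor that ATF4 induces, was at 31.3 and 30.8 CPM against 1.55 to 2.61 CPM (median 1.99), and ATF3, a factor downstream of ATF4, at 51.9 and 54.8 CPM against 3.33 to 4.91 CPM (median 4.45). The log2 fold change was 1.01 ± 0.05 for ATF4 itself and 1.73 ± 0.10 for DDIT3, the pro-apoptotic factor CHOP. PHGDH, which starts serine synthesis, was the member that fell (−0.30 ± 0.06).

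Stress hormones that this response can induce were read apart. GDF15, a circulating signal of cell stress (chromosome 19, 18374731 to 18389176), was at 2921 and 3334 CPM with Coptidis and 136 to 160.2 CPM (median 148) with Zizyphi, 21.1-fold higher (log2 4.4 ± 0.07, edgeR adjusted p = 3.5e-39). Both Coptidis libraries were far above all Zizyphi libraries. FGF21, a hormone of fasting, had too few counts for the test, with 6 over the Coptidis and 1 over the Zizyphi libraries (ratio 23.8, 95% counting interval 2.89 to 1096). Intervals here and above cover counting error only.

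Most chaperones of the endoplasmic reticulum (ER) fell in the libraries in which ATF4 targets rose. Of 17 members 14 were lower and 3 higher (median −0.57), with 6 lower past 2-fold. SDF2L1 was at 5.92 and 8.97 CPM against 27.9 to 40.2 CPM (median 33.2) and CRELD2 at 8.74 and 10.6 CPM against 35.8 to 37.8 CPM (median 36.1). Among abundant members, PDIA4, a disulfide isomerase, was at 182 and 181 CPM against 512 to 541 CPM (median 526) (log2 −1.53 ± 0.04) and CALR, calreticulin, at 525 and 534 CPM against 1400.3 to 1478 CPM (median 1446) (log2 −1.45 ± 0.05). DNAJB9, a target of the sensor IRE1, was higher at 0.75 ± 0.07.

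Cytosolic heat shock genes showed smaller differences, with 7 of 12 lower, 3 higher and 0 past 2-fold. HSPE1, which acts in mitochondria with HSP60, had the largest at −1.18 ± 0.13. Of 20 cytosolic aminoacyl-tRNA synthetases, which charge tRNAs with amino acids, 13 were higher and 5 lower. CARS1, for cysteine, was at 80.8 and 85.5 CPM against 22.8 to 28.4 CPM (median 25.5) and SARS1, for serine, at 254 and 255 CPM against 79.7 to 86.9 CPM (median 84.7), while FARSB, for phenylalanine, changed by −0.67 ± 0.04.

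Immediate early genes, which respond to growth factor and stress signals, were high 24 h after treatment. All 16 listed members were higher and 15 were past 2-fold, with a median log2 fold change of 3.51. EGR1, a zinc finger factor (chromosome 5, 138465490 to 138469315), was at 374 and 377 CPM against 9.67 to 12.9 CPM (median 11.2) (log2 5.08 ± 0.07, edgeR adjusted p = 3.1e-44). FOS, a subunit of the AP-1 factor, was at 25.2 and 22.7 CPM against 0.369 to 0.597 CPM (median 0.531) and FOSB at 15.6 and 15.0 CPM against 0.279 to 0.608 CPM (median 0.426). No Zizyphi library came near the Coptidis libraries in these genes.

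Feedback inhibitors of the ERK pathway rose beside them, in 11 of 13 tested members with 1 lower (median 1.95). DUSP5, a nuclear ERK phosphatase (chromosome 10, 110497838 to 110511544), was at 287 and 295 CPM with Coptidis and 3.11 to 4.35 CPM (median 3.57) with Zizyphi, 80.2-fold higher (edgeR adjusted p = 7.5e-42). DUSP4 changed by 3.40 ± 0.17, DUSP1 by 3.03 ± 0.07 and SPRY4, a Sprouty inhibitor of receptor signalling, by 2.87 ± 0.07. SPRY1 was the member that fell (−0.35 ± 0.06).

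**Figure D3:**
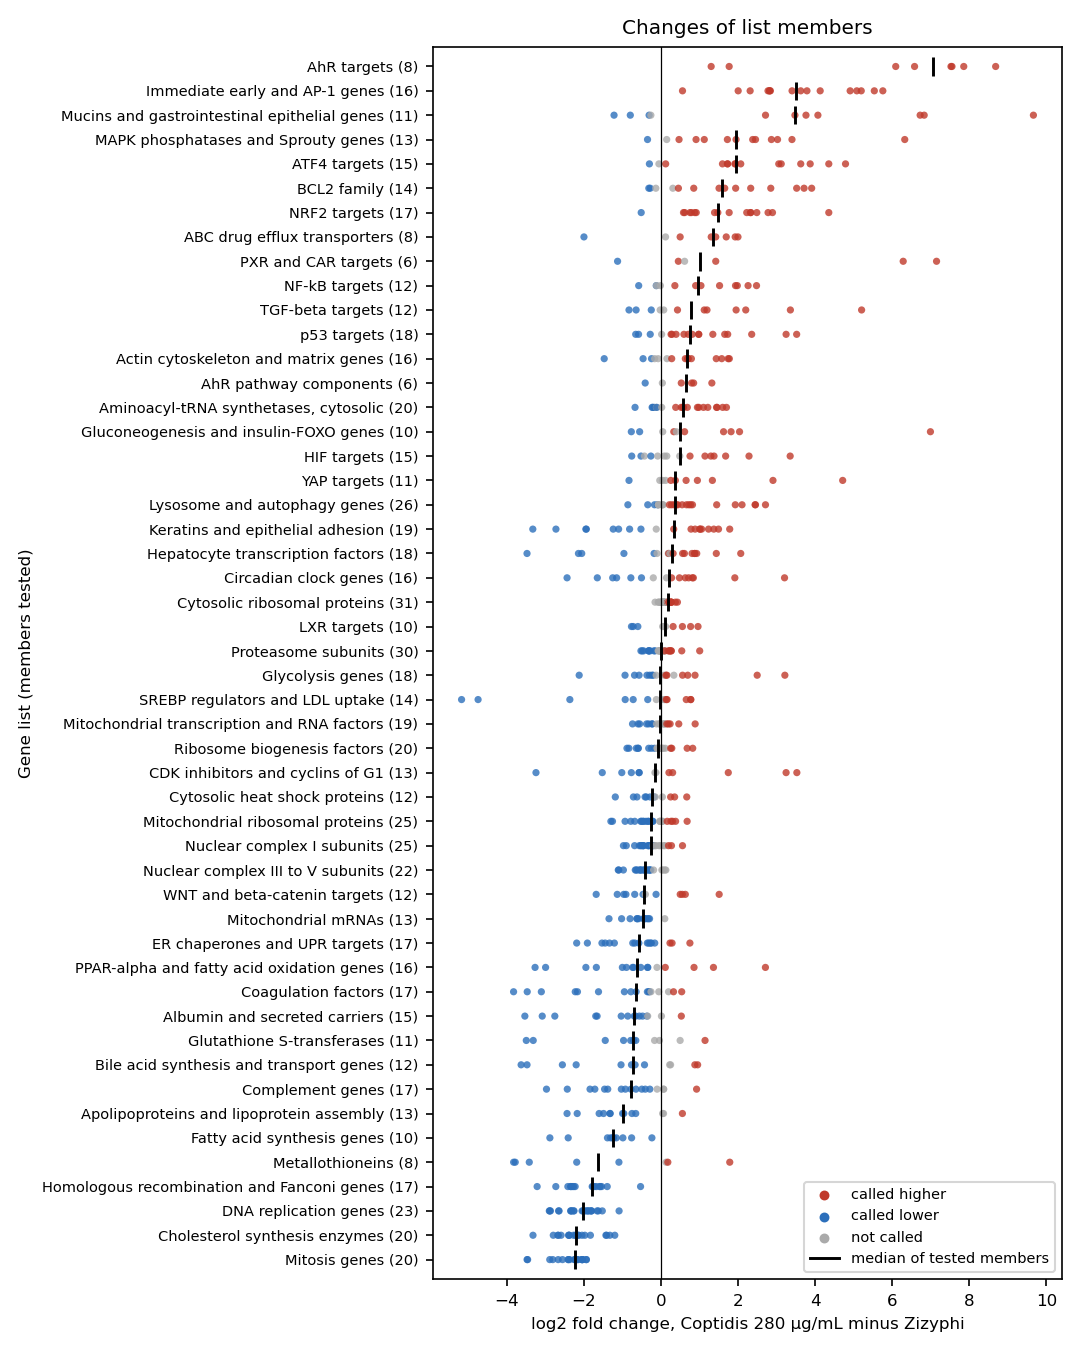
Log2 fold change (x axis) of each tested member of the gene lists with at least 6 tested genes (y axis, number tested in brackets), coloured by its call, with a bar at each list's median. The lists of cell type markers are not drawn. Medians run from −2.24 for mitosis genes to 7.05 for AhR targets, and all 20 mitosis and all 20 cholesterol synthesis genes lie below 0.

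Cell cycle genes fell together and an inhibitor of the cycle rose. All 20 mitosis genes were lower and past 2-fold (median −2.24). KIF20A, a kinesin of cell division (chromosome 5, 138178719 to 138187715), was at 7.02 and 7.17 CPM with Coptidis and 75.1 to 82.6 CPM (median 79.1) with Zizyphi, 11.1-fold lower (log2 −3.47 ± 0.10, edgeR adjusted p = 3.7e-32). AURKB, a kinase that corrects spindle attachment, was at 6.02 and 5.38 CPM against 59.9 to 64.7 CPM (median 62.7). In bulk RNA, fewer dividing cells and less of these mRNAs per cell cannot be told apart.

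Replication and repair genes shared the direction. Of 23 DNA replication genes 23 were lower and 22 past 2-fold (median −2.02), led by GINS2, part of the replicative helicase, at 8.90 and 8.40 CPM against 62.4 to 66.5 CPM (median 64.5), and by the initiation factor MCM10, at 6.96 and 5.74 CPM against 44.5 to 48.5 CPM (median 46.9). Of 17 genes of homologous recombination and the Fanconi pathway 17 were lower and 16 past 2-fold (median −1.78). EXO1, which resects DNA ends, was at 2.72 and 2.66 CPM against 23.3 to 26.4 CPM (median 24.8), and BRIP1, a helicase partner of BRCA1, changed by −2.73 ± 0.12.

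CDKN1A, the inhibitor p21 (chromosome 6, 36676460 to 36687339), was at 764 and 761 CPM with Coptidis and 78.6 to 82.4 CPM (median 79.9) with Zizyphi, 9.49-fold higher (log2 3.25 ± 0.04, edgeR adjusted p = 1.4e-44). CDKN2B, the inhibitor p15, was at 60.3 and 57.4 CPM against 4.80 to 5.79 CPM (median 4.97), and CDKN2A, p16, changed by 1.75 ± 0.14. CDKN2C, the inhibitor p18 which dividing cells make, went down to 2.57 and 2.41 CPM from 21.9 to 25.5 CPM (median 23.7). Over 13 tested CDK inhibitors and G1 cyclins 5 were higher and 6 lower, so the family had no common direction.

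Targets of p53 rose in 14 of 18 cases and fell in 3 (median 0.76), 6 of them past 2-fold. PMAIP1, the death gene NOXA, was at 17.2 and 17.4 CPM against 1.3 to 2.02 CPM (median 1.45), and PLK2, a stress-induced kinase, at 61.2 and 60.9 CPM against 11.3 to 12.6 CPM (median 11.9). FDXR, a mitochondrial reductase and p53 target, was the member with the largest fall (−0.65 ± 0.09). Among 14 genes of the BCL2 family, which sets the threshold for apoptosis, 10 were higher and 2 lower (median 1.58). The BH3-only gene BMF was at 68.0 and 72.0 CPM against 9.23 to 10.1 CPM (median 9.80) (log2 2.85 ± 0.07, adjusted p = 2.7e-34), while BAX, an executor that is named after its value was seen, changed by −0.28 ± 0.08.

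Cholesterol synthesis was lower along the whole pathway. Its genes are driven by the factor SREBP2, which is released when sterols in the ER run low. All 20 enzymes were lower and 19 past 2-fold, with a median of −2.21 and a range of −3.32 to −1.2. HMGCS1, which makes HMG-CoA (chromosome 5, 43289395 to 43313512), was at 74.7 and 71.7 CPM with Coptidis and 443 to 499 CPM (median 463) with Zizyphi (log2 −2.67 ± 0.06, edgeR adjusted p = 3.2e-36). ACAT2, which joins acetyl-CoA units, was at 30.2 and 26.0 CPM against 268 to 286 CPM (median 283), MVD, which makes isopentenyl diphosphate, at 29.3 and 30.1 CPM against 195 to 223 CPM (median 204), and IDI1, its isomerase, at 29.8 and 30.3 CPM against 179 to 200.2 CPM (median 193). Both Coptidis libraries lay far below the lowest Zizyphi library in each of these.

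The regulators of sterol uptake had no common direction. Of 14 members 5 were higher and 6 lower, or 3 and 7 with library totals alone. SREBF2, the gene of SREBP2, was at 110.2 and 114 CPM against 202 to 227 CPM (median 213) (log2 −0.93 ± 0.06, edgeR adjusted p = 6.6e-18). STARD4, a sterol carrier, changed by −2.36 ± 0.07, and NPC1, which moves cholesterol out of lysosomes, by 0.78 ± 0.07. Of 10 tested targets of the sterol sensor LXR 4 were higher and 3 lower, with 0 past 2-fold, and their median of 0.10 turned to −0.02 with library totals alone.

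Fatty acid synthesis fell as well, in 10 of 10 tested genes with 5 past 2-fold (median −1.24). FADS2, a desaturase of long-chain fatty acids, was at 33.2 and 30.4 CPM against 222 to 245 CPM (median 234), and SCD, which makes oleate, at 417 and 407 CPM against 2037 to 2308 CPM (median 2187). FASN, fatty acid synthase, changed by −1.39 ± 0.12. Targets of PPAR-alpha and genes of fatty acid oxidation were lower in 11 of 16 cases and higher in 4. FABP1, the liver fatty acid carrier, was at 7.96 and 11.4 CPM against 82.2 to 100.2 CPM (median 96.6) and EHHADH, a peroxisomal enzyme, changed by −1.95 ± 0.07. PLIN2, which coats lipid droplets, was higher, at 803 and 847 CPM against 123 to 131 CPM (median 126) (log2 2.71 ± 0.04, edgeR adjusted p = 1.2e-41), as was CPT1A, which admits fatty acids to mitochondria (1.36 ± 0.05).

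Lipoprotein and bile acid genes were mostly lower. Of 13 apolipoprotein and assembly genes 10 were lower and 1 higher (median −0.99). APOA5, which aids triglyceride clearance, changed by −2.43 ± 0.13, APOC3, which slows it, by −2.17 ± 0.13, APOH by −1.60 ± 0.06 and APOC1, the member that rose, by 0.56 ± 0.11. Of 12 tested genes of bile acid synthesis and transport 8 were lower and 2 higher. NR1H4, the bile acid receptor FXR (chromosome 12, 100473708 to 100564413), was at 5.86 and 6.81 CPM against 66.7 to 75.9 CPM (median 70.7) (log2 −3.47 ± 0.09, edgeR adjusted p = 3.9e-33). AKR1D1, a reductase of bile acid synthesis, was at 1.20 and 1.08 CPM against 13.3 to 15.7 CPM (median 13.9). NR0B2, the repressor SHP that FXR induces, was higher at 0.95 ± 0.08. CYP7A1, the rate-limiting enzyme, was named after its value was seen, at 0.209 and 0 CPM against 0.359 to 0.955 CPM (median 0.432). Its call (edgeR adjusted p = 0.0038) was lost without Coptidis replicate 3 (adjusted p = 0.15).

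IGFBP1, a secreted binder of insulin-like growth factors that insulin represses through FOXO factors (chromosome 7, 45888357 to 45893668), went from a low to a high level. It was at 5749.5 and 6444 CPM against 44.3 to 50.9 CPM (median 47.6) with Zizyphi, 127-fold higher (log2 6.99 ± 0.12, edgeR adjusted p = 1.2e-35). Of the 10 tested genes of gluconeogenesis and insulin-FOXO signalling 6 were higher and 2 lower. IRS1, the insulin receptor substrate, was at 191 and 178 CPM against 47.9 to 56.1 CPM (median 52.4), and FOXO3 changed by 1.62 ± 0.07. PCK1, the gluconeogenic enzyme often read beside IGFBP1 and named after its value was seen, was lower, at 2.51 and 2.51 CPM against 3.37 to 6.10 CPM (median 4.05) (−0.77 ± 0.16).

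Glycolysis genes had no common direction, with 7 of 18 higher and 8 lower. PFKP, the platelet form of phosphofructokinase, was at 43.8 and 45.8 CPM against 4.43 to 5.65 CPM (median 4.71) (log2 3.22 ± 0.07), while ALDOC, an aldolase, changed by −2.12 ± 0.11. Of 15 targets of the hypoxia factor HIF 7 were higher and 3 lower (median 0.49). NDRG1, a stress gene, was at 320.1 and 326 CPM against 28.8 to 35.4 CPM (median 31.1), ADM, adrenomedullin, changed by 2.29 ± 0.09, EGLN1, an oxygen-sensing hydroxylase, by 1.68 ± 0.05 and VEGFA, the vascular growth factor, by 1.38 ± 0.05. P4HA1, a collagen hydroxylase, was lower (−0.76 ± 0.06).

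Mitochondrial RNA changed in composition. The 2 mitochondrial rRNAs made up 5.54% ± 0.187 (SD, n = 2) of counts with Coptidis and 2.56% ± 0.0760 (SD, n = 6) with Zizyphi, 2.17-fold more. Both Coptidis libraries were above all 6 Zizyphi libraries, which ran from 2.41% to 2.61%. A two-sided exact permutation test gave p = 0.0714, the smallest that 2 against 6 libraries allow, so this single comparison could not reach 0.05. In the fit over all genes MT-RNR1, the 12S rRNA, changed by 1.91 ± 0.08 and MT-RNR2, the 16S rRNA, by 1.01 ± 0.05 (edgeR adjusted p = 8.7e-26 and 7.9e-22).

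The 13 mRNAs of the mitochondrial genome moved the other way. Their share was 4.26% ± 0.0804 (SD, n = 2) with Coptidis and 6.64% ± 0.155 (SD, n = 6) with Zizyphi. Of the 13, 12 were lower (median −0.45). MT-ND4L, of complex I, was at 679 and 729 CPM against 1519.6 to 1991 CPM (median 1839), MT-ND3 at 915 and 1041 CPM against 1587 to 2284 CPM (median 2046) and MT-CO3, of complex IV, at 4803 and 4899 CPM against 7798 to 9204 CPM (median 8417). MT-ND6, the one on the other strand, was at 373 and 477 CPM against 315 to 471 CPM (median 394) with overlapping libraries and was not called (edgeR adjusted p = 0.65), although a fit with GC content and length offsets called it higher (0.41, adjusted p = 0.0201). Nuclear copies of mitochondrial sequence may take part of these reads.

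**Figure D4:**
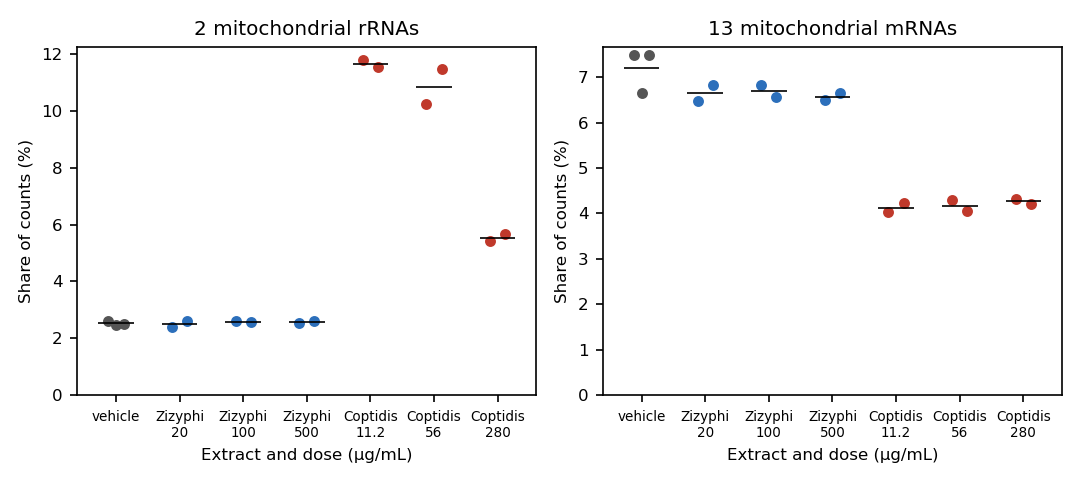
Share of all counts (y axis, %) from the 2 mitochondrial rRNAs (left) and the 13 mitochondrial mRNAs (right) in each library of vehicle, Zizyphi and Coptidis by dose in µg/mL, with bars at group means. The rRNA share is 5.54% at 280 µg/mL of Coptidis, below the 10.9% and 11.7% at 56 and 11.2 µg/mL, while the mRNA share is close to 4% at each Coptidis dose.

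Nuclear genes of the respiratory chain differed by small amounts. Of 25 complex I subunits 15 were lower and 3 higher (median −0.25, 0 past 2-fold), and of 22 subunits of complexes III to V 17 were lower (median −0.41). ATP5MC1, of the ATP synthase ring, changed by −1.11 ± 0.09 and UQCRQ, of complex III, by −1.09 ± 0.15. Of 25 mitochondrial ribosomal proteins 15 were lower and 5 higher, with MRPL11 at −1.3 ± 0.10. Factors of mitochondrial transcription and RNA processing had no common direction, with 5 of 19 higher and 7 lower, and FASTKD5, which processes mitochondrial transcripts, at 0.89 ± 0.04.

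Most secreted liver proteins were lower, and FGA had the lowest log2 fold change of the coagulation genes. FGA, FGG and FGB, the chains of fibrinogen, lie side by side on chromosome 4. FGA (chromosome 4, 154583126 to 154590766) was at 69.0 and 74.2 CPM with Coptidis and 979.9 to 1064 CPM (median 1011) with Zizyphi (log2 −3.82 ± 0.06, edgeR adjusted p = 3.6e-41). FGG was at 89.7 and 96.8 CPM against 992 to 1061 CPM (median 1041) (log2 −3.47 ± 0.07), and FGB at 56.4 and 52.7 CPM against 245 to 266 CPM (median 253) (log2 −2.22 ± 0.05). Over 17 tested coagulation genes 12 were lower and 2 higher (median −0.64), with KNG1, kininogen, at −3.10 ± 0.19. Complement genes were lower in 13 of 17 cases and higher in 1, with C8A at −2.97 ± 0.13.

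ALB, albumin (chromosome 4, 73397114 to 73421412), differed less than these, at 7402 and 7841 CPM against 10759 to 11602 CPM (median 11337) (log2 −0.56 ± 0.05, adjusted p = 7.8e-15). Of 15 tested carriers 12 were lower and 1 higher (median −0.69). HP, haptoglobin, was at 17.7 and 17.9 CPM against 195 to 214 CPM (median 206), SERPINA7, which carries thyroxine, at 15.6 and 15.5 CPM against 128 to 137 CPM (median 131), and TTR, transthyretin, at 14.1 and 17.3 CPM against 48.4 to 55.0 CPM (median 49.8). AMBP, the precursor of bikunin, was the member that rose (0.53 ± 0.06). All 8 hepatocyte markers were lower (median −0.81), so the label of the line and this group of results rest on the same genes.

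Liver transcription factors divided. Of 18 members 10 were higher and 5 lower. CEBPA, which maintains the hepatocyte state, was at 31.3 and 38.2 CPM against 147 to 158 CPM (median 154) (log2 −2.14 ± 0.09), while CEBPB, its relative of the acute phase, was higher, at 101 and 148 CPM against 26.8 to 33.9 CPM (median 29.1) (log2 2.07 ± 0.14, edgeR adjusted p = 3.5e-16). ONECUT1 changed by −2.05 ± 0.30. HNF4A, which is named after its value was seen, differed by 0.20, and its call was lost with library totals alone (edgeR adjusted p = 0.0602).

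Of 11 tested mucins and gastrointestinal epithelial genes 7 were higher, all past 2-fold, and 3 lower (median 3.48), while 9 of the 20 listed had too few counts. Genes near 0 with Zizyphi could pass the count filter only through groups where they were higher, so the filter favoured rises in this list. Among the 9 tested genes of at least 1 CPM in either group, 5 were higher and 3 lower. Beside MUC5AC, the intestinal factor CDX2 was at 7.12 and 8.15 CPM against 0 to 0.143 CPM (median 0.0574) (log2 6.83 ± 0.44, edgeR adjusted p = 1.1e-17) and AGR2, which folds mucins, at 19.3 and 18.1 CPM against 0.718 to 1.56 CPM (median 1.13). The intestinal mucin MUC2, named after its value was seen, had 20 counts over the Coptidis and 0 over the Zizyphi libraries. That is at least 26.5-fold higher, taking 3 counts over the 6 libraries as the floor, and it was not called by DESeq2 (adjusted p = 0.552).

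Of 12 tested TGF-beta targets 7 were higher and 3 lower (median 0.78). AXL, a receptor kinase on the list of YAP targets, was at 168 and 172 CPM against 5.90 to 7.40 CPM (median 6.45), 26.3-fold higher (edgeR adjusted p = 7.2e-42). Over 11 YAP targets 7 were higher and 1 lower, and the paired matricellular genes CCN1 and CCN2 went opposite ways, at 2.91 ± 0.06 and −0.83 ± 0.05. CXCL8, the chemokine IL-8, was at 10.2 and 9.43 CPM against 1.43 to 2.16 CPM (median 1.69) (log2 2.48 ± 0.18), among 12 tested NF-kB targets of which 8 were higher and 2 lower.

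Adhesion genes went in both directions, with 10 of 19 tested higher and 8 lower. JUP, plakoglobin of desmosomes and adherens junctions, was at 299.5 and 287 CPM against 79.0 to 92.0 CPM (median 84.8). TJP3, a tight junction scaffold, was at 0.785 and 0.871 CPM against 7.36 to 9.16 CPM (median 8.37) (log2 −3.32 ± 0.17), and CDH1, E-cadherin, changed by −1.93 ± 0.13 and CLDN2, a pore-forming claudin, by −1.95 ± 0.15. Of 16 tested genes of actin and matrix 10 were higher and 3 lower. ACTG1, cytoplasmic actin, was at 7139 and 7569.6 CPM against 2139 to 2272 CPM (median 2169) (log2 1.74 ± 0.04), and FLNA, a crosslinker of actin, changed by 1.58 ± 0.11.

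Lysosome and autophagy genes rose in 16 of 26 cases and fell in 4 (median 0.37). GABARAPL1, a protein of the autophagosome membrane, was at 47.9 and 50.4 CPM against 6.90 to 7.95 CPM (median 7.67), SQSTM1, the receptor p62, at 1329 and 1426 CPM against 239 to 261 CPM (median 251), CTSL, a lysosomal protease, at 252 and 259 CPM against 45.2 to 49.3 CPM (median 46.7), and MAP1LC3B, LC3B, changed by 2.10 ± 0.04. Of 30 proteasome subunits 8 were higher and 9 lower (8 and 7 with RLE scaling), with PSMD2 at 1.01 ± 0.03. The cytosolic ribosomal proteins had 12 of 31 higher and 0 lower, but 2 and 2 with library totals alone, so their direction depended on the scaling. Ribosome biogenesis factors were lower in 8 of 20 cases and higher in 4, with NOP56 at −0.88 ± 0.06 and RRP12 at 0.83 ± 0.04.

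Clock and WNT genes completed the lists. Of 16 tested clock genes 8 were higher and 6 lower (7 and 7 with library totals alone). BHLHE40, a repressor that many stresses induce, was at 161 and 156 CPM against 16 to 19.6 CPM (median 16.5) and NR1D1, REV-ERB-alpha, at 55.8 and 54.9 CPM against 14.2 to 15.2 CPM (median 14.6). Of 12 tested WNT and beta-catenin targets 7 were lower and 4 higher, with DKK1, a secreted WNT inhibitor, at −1.68 ± 0.08 and TBX3, a T-box factor, at 1.51 ± 0.06.

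The lower Coptidis doses are given as values with no test. CYP1A1 had group means of 107, 1213 and 4727 CPM at 11.2, 56 and 280 µg/mL, beside 11.7 CPM with Zizyphi. MUC5AC had 0.483, 3.77 and 96.9 CPM, and C5AR2 0.0931, 0.941 and 76.4 CPM. GDF15 had 459, 1242 and 3127 CPM.

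FGA and HMGCS1, which fell at the high dose, also had lower means than Zizyphi at both lower doses. FGA had 595, 331 and 71.6 CPM at the rising doses, beside 1013 CPM with Zizyphi, and HMGCS1 350.1, 142 and 73.2 CPM, beside 468 CPM. The median of the mitosis list was −0.29, −1.21 and −2.24 against Zizyphi, and that of the cholesterol list −0.29, −1.35 and −2.21. For the p53 targets the medians were −0.10, 0.07 and 0.76. The mitochondrial rRNAs departed from this order. MT-RNR1 had 44793 and 40282 CPM at the lower doses and 18819 CPM at the high dose, beside 5017 CPM with Zizyphi. CCN2 had 217, 203 and 97.5 CPM, beside 173 CPM with Zizyphi, so only the high dose lay below Zizyphi. These medians share the Zizyphi libraries as their reference.

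**Figure D5:**
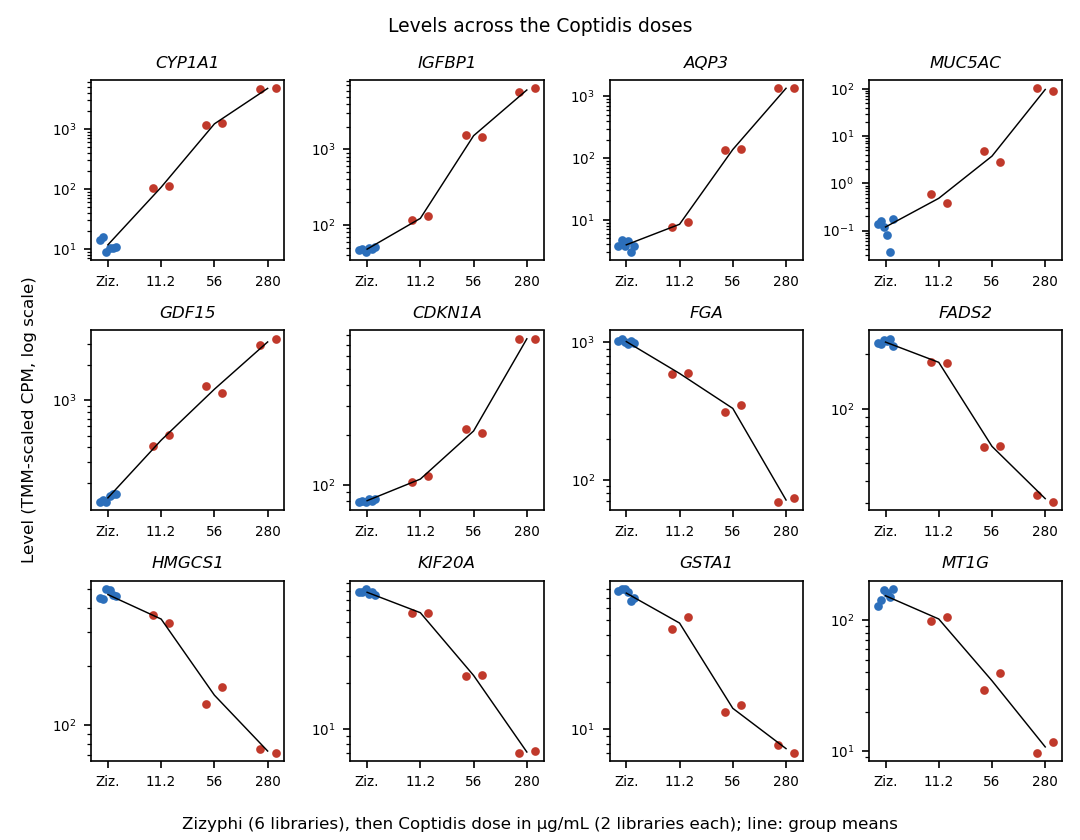
Levels (TMM-scaled CPM, log axis) of 12 genes in the 6 Zizyphi libraries (blue) and the 2 libraries at each Coptidis dose of 11.2, 56 and 280 µg/mL (red), with a line through the group means. CYP1A1 climbs from 107 to 4727 CPM over the doses and FGA goes from 595 down to 71.6 CPM.

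Few genes were called between the Zizyphi doses. A test of the 3 doses being equal called 1 gene (0.006% of those tested, edgeR's quasi-likelihood test), with 387 at an unadjusted p under 0.05. That share is below the 0.05 that chance alone would give, and the number was 604 without the Bupleuri library named above. With 2 libraries per dose the test could miss differences. The gene called was ASNS, at 40.5 and 41.8 CPM at 20 µg/mL, 29.9 and 30.5 at 100 µg/mL and 30 and 27.9 at 500 µg/mL. Its level with Coptidis at 280 µg/mL was above each of them. Without a filter on low counts 110 genes were called, and without either library of 20 µg/mL 0 were.

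Against vehicle, 1587 genes (9.52%) differed with Zizyphi, 825 higher and 762 lower, of which 42 had a fitted change of at least 2-fold. The number rested on single libraries: it was 526, 717 and 1010 without vehicle replicates 1, 2 and 3, 923 without Zizyphi 20 µg/mL replicate 2, 998 without Zizyphi 100 µg/mL replicate 3, and 2952 without the Bupleuri library named above. The vehicle libraries have a set name of their own, so a set difference and an effect of Zizyphi cannot be told apart. For most named genes the choice of reference changed little: the log2 fold change of Coptidis was 8.68 against Zizyphi and 8.52 against vehicle for CYP1A1, −3.82 and −3.81 for FGA, and −3.47 and −3.47 for KIF20A. These pairs share the Coptidis libraries.

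The genes called in both comparisons with the largest difference between Zizyphi and vehicle show where it mattered. TMEM160 was at 2.36 and 5.07 CPM with Coptidis, 8.16 to 12.6 CPM (median 10.2) with Zizyphi and a mean of 2.95 CPM in vehicle, so it was lower than Zizyphi (log2 −1.50 ± 0.24) and at 0.34 against vehicle. GLTPD2 (−0.56 against Zizyphi, 0.52 against vehicle) and RSRP1 (0.35 and −0.18) also had opposite signs, and without Coptidis replicate 2 GLTPD2 was at 0.03 against Zizyphi. The others kept their sign, among them KISS1R (−2.85 and −2.13), PRR7 (0.47 and 1.20), CCDC85B (0.35 and 1.13), SEL1L3 (3.79 and 3.13) and SEC61G (−0.57 and −1.05). The read-through genes FAM47E-STBD1 (3.54 and 2.32) and RPS10-NUDT3 (0.98 and 0.19) share reads with their parts and are uncertain. Against Zizyphi the call of CCDC85B was lost without either Coptidis library or any of 5 Zizyphi libraries, that of PRR7 without Coptidis replicate 3 and that of SEC61G without Coptidis replicate 2.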

How the data were processed

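Total RNA of HepG2 cells was sequenced as paired reads of 100 bases from 60 libraries. Per the submitters' processing notes, the authors used RSEM 1.3.3 with STAR 2.7.3a on GRCh38, beside Trim Galore 0.6.5 and FastQC 0.11.9. No source used here gives their annotation release. What they deposited are expected counts from RSEM, 1 value per gene and library (60675 gene identifiers, of which 56558 had a symbol and 57055 a position in GENCODE 29), and 8.7468% of the values used were not whole. Of 267 columns, 207 belong to no sample used here. RSEM divides reads among genes that share sequence, so close copies are uncertain. Library totals ran from 18015552 to 29549499 counts over all 60 libraries. No 2 replicates were closer than sampling noise (smallest chi-square per degree of freedom 2.09).

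The expected counts were rounded to whole numbers, filtered with edgeR's filterByExpr (44000 genes left out, 16675 tested), scaled by TMM and fitted with edgeR 4.0.16 (R 4.3.3, robust quasi-likelihood test) over 57 libraries in 22 groups, with 35 residual degrees of freedom and a common coefficient of variation of 6.14%. The contrast was Coptidis 280 µg/mL minus the mean of the 3 Zizyphi doses, and p-values were Benjamini-Hochberg adjusted over all tested genes with a threshold of 0.05. A change past 2-fold was tested with glmTreat. SE is the log2 fold change over the root of its F statistic, and it can be too small where a group holds few counts. Counting intervals and floors (3 counts over a group) cover counting error only, at a level of 95%. On simulated data of the same size, 87 of 100 genes changed 1.5-fold and 99 of 100 changed 4-fold were called, with 4 false calls. There all other genes were equal between the groups, rises and falls were equal in number, and the spread depended on level alone. In the data 69.7% of genes were called, so the simulation cannot give their false call rate or the error of scaling.

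The alternatives were DESeq2 1.42.0, 3 other scalings, no filter, fewer libraries in the fit, a replicate block, other reference libraries, GC content and length offsets, and leaving out each library. The members and the 56 gene lists were chosen with earlier results of these data known. Named genes were the 10 largest rises and falls at 5 CPM or more in either group without overlap, up to 4 leading members of each list and its largest opposite member, a panel of regulators, and the 5 genes each way with the largest difference of Zizyphi from vehicle. Some of them are not reported here, and others are marked as named after their values were seen. Promoter windows of IDI1 and LIM2 are not printed, and MUC5AC and MYZAP have no entry in the RefSeq table.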

Additional observations from a re-analysis of the deposited data

Results flagged for a closer look

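Of 172 values looked at across the 6 Zizyphi libraries, 7 had a highest or lowest library whose gap to the next exceeded Dixon's 95% critical value for 6 samples. Chance gives about 1 in 20. CRELD2 was at 37.8 CPM in replicate 2 of 20 µg/mL, with the others at 35.8 to 36.3 CPM. PMAIP1 was at 2.02 CPM in replicate 3 of 20 µg/mL (others 1.3 to 1.48 CPM). CYP7A1 was at 0.955 CPM in replicate 3 of 500 µg/mL (others 0.359 to 0.561 CPM). For ATP5MC1 replicate 3 of 100 µg/mL stood at 70.0 CPM (others 60.4 to 62.5 CPM), and for FASTKD5 replicate 2 of 500 µg/mL stood at 70.4 CPM (others 65.1 to 66.9 CPM). The read-through gene FAM47E-STBD1 was at 4.10 CPM in replicate 2 of 500 µg/mL (others 0.984 to 1.89 CPM). The mitochondrial rRNA share was 2.41% in replicate 2 of 20 µg/mL (others 2.55% to 2.61%).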

How the results depend on the processing

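The number of genes called between Coptidis and Zizyphi stayed within 1.5 times of 11616 in all alternatives run, from 10306 without Coptidis replicate 2 to 12177 without a filter, and was 11256 with DESeq2. The number past 2-fold ran from 2718 to 3231. With the replicate number as a block on the 12 Coptidis and Zizyphi libraries, 11446 genes were called and 2938 past 2-fold. The pairing rests on 2 shared numbers that the labels tie to no common batch, and the difference between replicates 3 and 2 correlated across 10698 genes at 0.1328 to 0.4926 between groups.

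The Zizyphi dose test called 110 genes without a filter, 2 without the Bupleuri library and 0 to 1 with a Zizyphi library left out. Zizyphi against vehicle called 2952 genes without the Bupleuri library and 526 to 1615 with 1 library left out. The rise of the mitochondrial rRNA share, 2.99 percentage points, was 3.33 when counted per 100 counts of all other genes. Signs turned for TMEM160 (0.34), GLTPD2 (0.52) and RSRP1 (−0.18) with vehicle as reference, and for GLTPD2 without Coptidis replicate 2, where leaving out 1 library gave −1.6316 to 0.0318. The cause was not tested. Of 4045 gene and alternative pairs 4007 kept direction and call, and 172 of 184 named genes did so in every alternative. With 2 Coptidis libraries, 1 single-value comparison cannot pass 0.05, and genes of a few counts have wide intervals.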

Other observations

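Some genes with few counts in 1 group are given by their counting ratio and were chosen after their values were seen. CHAC1, which degrades glutathione and is an ATF4 target, had 26 counts over the Coptidis and 3 over the Zizyphi libraries, a ratio of 34.4 (95% counting interval 10.5 to 178). CLDN14, a tight junction protein, had 2 and 58 counts, 7.30-fold lower (1.93 to 61.7).

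The direction of calls differed by gene class, a split that was also chosen after the data were seen and that has no test. Among protein-coding genes with a genomic span under 10 kb, 29.2% were higher and 41.7% lower (n = 2578). Between 100 and 300 kb, 47.0% were higher and 30.4% lower (n = 1973), and over 300 kb the shares were 34.8% and 39.8% (n = 397). Of 710 lincRNAs 23.1% were higher and 30.4% lower, and of 1087 antisense genes 18.8% and 27.4%, beside 39.5% and 36.9% of 13132 protein-coding genes. Past 2-fold the order was not kept. Those shares were 10.8% higher and 10.2% lower under 10 kb, 11.4% and 6.23% between 100 and 300 kb, and 12.3% and 10.1% over 300 kb. They were 10.6% and 7.47% of lincRNAs, 6.44% and 6.62% of antisense genes, and 10.6% and 8.62% of protein-coding genes. The balance also moved with scaling: 51.1% of all calls were higher with TMM and 43% with library totals alone.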
